A study of Danio rerio with 8 samples.

Results

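Keratins, claudins and desmosomal genes build the epithelia that cover the head and line its cavities. The genes described here are the rows of the raw count table whose symbol names a keratin, a claudin, a desmosomal or plakin protein, or *epcam*, *tp63*, *agr1*, *agr2*, *icn* or *icn2*, and which had at least 10 counts in at least 3 libraries. These were 64 of 19412 tested genes, made up of 19 keratins, 27 claudins, 12 desmosomal and plakin genes and 6 other epithelial genes. A further 17 rows matched by symbol but were under the count minimum, 15 of them claudins and 2 keratins, and none of these had more than 75 counts over the 8 libraries together.

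The libraries hold polyA RNA from the heads of AB zebrafish larvae at 7 days post-fertilization (dpf). There were 4 libraries from *mtmr5*-KO larvae, which are homozygous for a CRISPR/Cas9 deletion of the whole *mtmr5* (*sbf1*) gene in a single mutant line, and 4 from WT larvae. The authors describe the WT larvae as siblings of the mutants. Each library pools dissected heads (11 to 17 per genotype), larvae of both genotypes had been fin-clipped for genotyping, and replicates came from different breeding pairs. The samples are labelled brain-enriched, yet a head also holds skin, oral and olfactory epithelium, eyes, muscle and vessels, and which cells express a gene cannot be read from these libraries.

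Keratins are intermediate filament proteins in which an acidic type I chain pairs with a basic type II chain. The filaments attach to desmosomes, in which cadherins (desmogleins, desmocollins) bind plakoglobin and plakophilins, and these in turn bind desmoplakin. Claudins span the membrane at tight junctions and set which ions and solutes pass between cells. In zebrafish larvae the skin is a thin bilayer of superficial and basal keratinocytes. Outside the skin, claudins seal brain vessels, the gut and the membranes of myelinating glia.

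Labels were checked by the targeted gene. *sbf1* had 63, 55, 42 and 26 raw counts in *mtmr5*-KO, against 2545, 1939, 2008 and 1894 in WT libraries. Total counts ran from 16104181 to 19170140 in *mtmr5*-KO and from 20514932 to 22761120 in WT libraries, and without the 20 rows of most counts they were 6220442 to 8772423 in *mtmr5*-KO and 14882195 to 18021612 in WT libraries. The 13 mitochondrially encoded genes took 18.6% to 26.6% of counts in *mtmr5*-KO and 6.43% to 8.82% in WT libraries. Because so few rows took so much of the *mtmr5*-KO counts, levels are given as TMM-scaled counts, which set the bulk of the genes equal between libraries, and the TMM factors were 0.559 to 0.881 in *mtmr5*-KO and 1.28 to 1.60 in WT libraries. Over all tested genes the median log2 fold change was -0.02 with TMM and -0.98 with library totals, so a fold change with TMM is one against the bulk of the genes. Fold changes are given ± standard error (SE). All 9 neuronal marker genes were detected, with a summed level of 122228 to 149852 TMM-scaled counts in *mtmr5*-KO and 72083 to 90214 in WT libraries. By median log2 fold change these markers were at -0.17 with TMM, 3 higher and 2 lower, and with library totals none was higher and 5 were lower. Replicates 3 and 4 of *mtmr5*-KO lay farther from WT than replicates 1 and 2 in several gene groups. Their mitochondrial shares were 26.3% and 26.6%, against 20.6% and 18.6% in replicates 1 and 2. Their TMM factors were 0.559 and 0.646, against 0.809 and 0.881. The part of these in the levels was not tested. Fold changes of the called genes are also given from *mtmr5*-KO replicates 1 and 2 alone against all WT libraries. That fit has fewer libraries and leaves out those seen to lie farther, so smaller changes and lost calls are in part built in. The reverse fit, without replicates 1 and 2, was not run.

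At an adjusted p under 0.05 (edgeR's quasi-likelihood test, Benjamini-Hochberg over all tested genes), *mtmr5*-KO heads had 26 of the 64 genes higher and 3 lower, while with library totals in place of TMM 4 were higher and 18 lower. The higher genes were 40.6% of the group, against 13.5% of all tested genes, and the lower ones 4.69%, against 7.51%. With library totals these shares were 6.25% against 3.70% for higher genes and 28.1% against 55.7% for lower genes. The same shares of all genes stand against each count by role or marker list. The median log2 fold change of the 64 genes was 0.69 with TMM and -0.28 with library totals, against the medians of -0.02 and -0.98 over all genes. In TMM-scaled counts 21 genes did not overlap between genotypes with *mtmr5*-KO above and 4 with *mtmr5*-KO below, which is 32.8% and 6.25% of the group, against 13.9% and 11.0% of all genes. In pooled heads, more cells of a type and more RNA per cell cannot be told apart. At an adjusted p under 0.01 and a change over 1 in log2, 14 genes were higher and 2 lower, where 7.13% and 1.08% of all genes were. The plot of all 64 log2 fold changes shows both scalings.

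**Figure D1:**
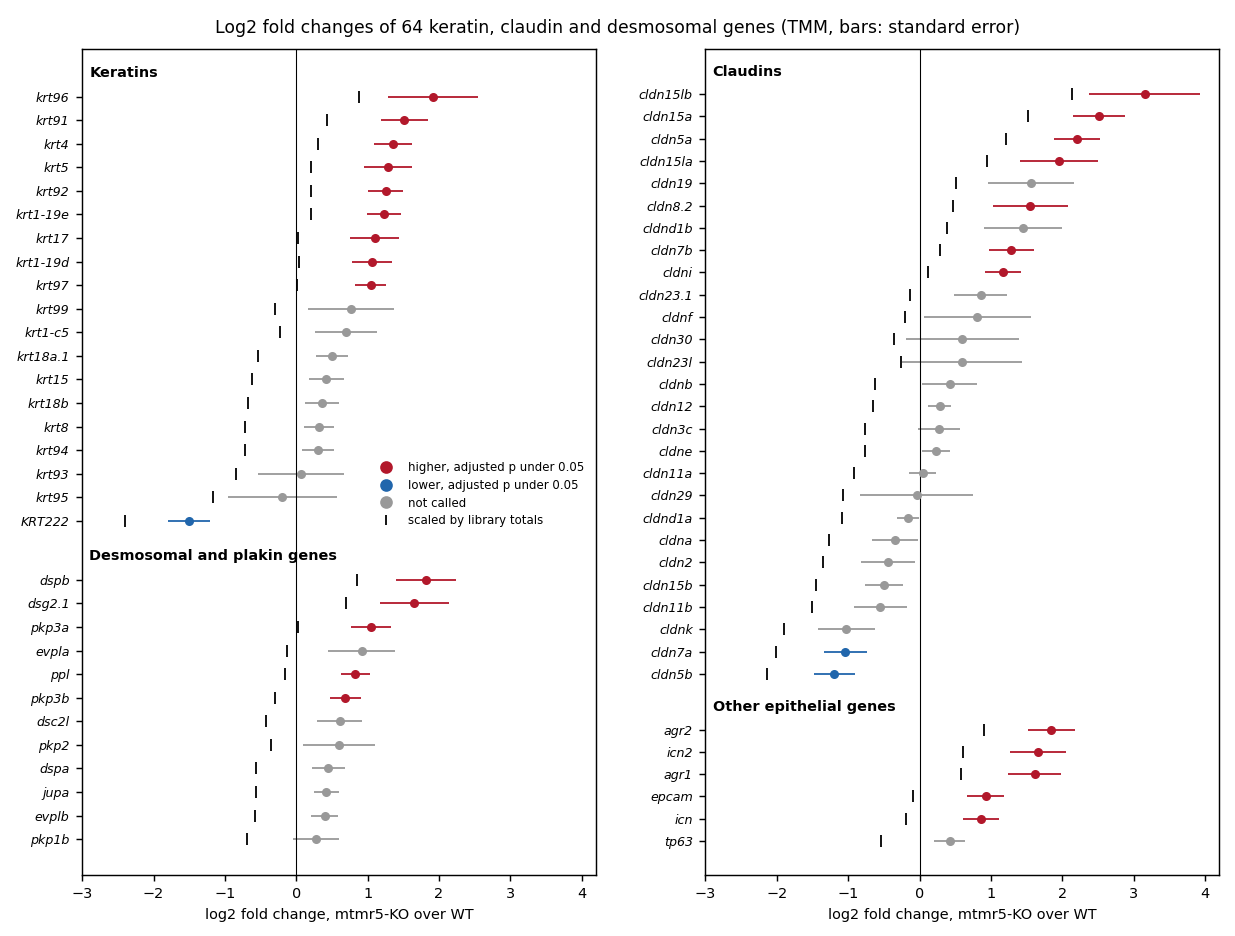
Log2 fold change of each of the 64 genes, *mtmr5*-KO over WT (x axis), by role, with TMM scaling (points, bars: standard error, coloured by the call at an adjusted p under 0.05) and with library totals (black ticks). With TMM 26 genes are called higher and 3 lower, and with library totals, which shift all values to the left, 4 are higher and 18 lower.

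The 26 calls depended on libraries as well as on scaling. Without replicate 4 of *mtmr5*-KO 17 genes were higher, and without replicate 3 there were 18, all of them among the 26. Without both, 6 were higher and 1 lower, at a share of 9.38% higher, against 8.14% of all genes in that fit (lower: 4.11% of all genes). The 6 were *cldn15a*, *cldn5a*, *agr2*, *dspb*, *krt4* and *krt92*. With the replicate number as a block, which pairs the libraries, 21 were higher (all among the 26) and 4 lower, where 14.8% and 11.7% of all genes were. Calls lost without replicate 3 were those of *cldn8.2*, *epcam*, *icn*, *krt1-19d*, *krt17*, *krt5*, *krt96* and *pkp3b*. Without replicate 4 the lost calls were *cldn15la*, *cldn8.2*, *dsg2.1*, *icn*, *krt1-19d*, *krt17*, *krt5*, *krt96* and *pkp3a*, and the lower *cldn7a*. Leaving out *mtmr5*-KO replicate 1 ended the call of *krt5* alone, and leaving out replicate 2 ended none. Each fit without 1 WT library lost *krt17*. Without WT replicate 1 *cldn15la*, *dsg2.1*, *epcam*, *krt96*, *pkp3b* and *cldn7a* were lost too, and without WT replicate 2 *cldn8.2*, *icn*, *krt5*, *krt96* and *pkp3b*. Without WT replicate 3 *cldn8.2*, *icn*, *krt96* and *pkp3b*, and without WT replicate 4 *cldn8.2*, *dsg2.1*, *epcam* and *icn*, also missed the threshold. Of the genes called here, 15 higher and 2 lower ones were called in each of the 8 fits that leave out 1 library.

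With TMM 9 of 19 keratins were higher (47.4%, against 13.5% of all tested genes) and 1 was lower (5.26%, against 7.51%) in *mtmr5*-KO. With library totals none was higher (against 3.70%) and 5 were lower (26.3%, against 55.7%). The keratin with the most counts was *krt4*, a type II keratin of the larval epidermis, with 11404, 7847, 19298 and 11131 in *mtmr5*-KO, against 5802, 5334, 5304 and 2899 in WT libraries (TMM-scaled counts). All *mtmr5*-KO libraries lay above all WT libraries, and replicate 3 of *mtmr5*-KO was the highest. The means were 12419.8 ± 4862 in *mtmr5*-KO and 4835 ± 1310.4 in WT (SD, n = 4 each), at a log2 fold change of 1.36 ± 0.27 (SE, adjusted p = 0.00213). Its raw counts were 7071, 5484, 9557 and 5352 in *mtmr5*-KO, against 9619, 7642, 7026 and 3739 in WT libraries, and with library totals its log2 fold change was 0.30 (adjusted p = 0.292). From *mtmr5*-KO replicates 1 and 2 alone it was 0.95 (adjusted p = 0.0362).

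*krt91* and *krt5*, another type II keratin of epidermis, followed *krt4*, each with an overlap between genotypes in 1 *mtmr5*-KO library. Levels of *krt91* were 7519, 3918, 11017 and 8629 in *mtmr5*-KO, against 4072, 2562, 2700.1 and 1553 in WT libraries. Its log2 fold change was 1.51 ± 0.33 (SE, adjusted p = 0.00735), with an adjusted p = 0.107 under the replicate block. For *krt5* the levels were 5687, 2566, 7376 and 6612 in *mtmr5*-KO, against 3339, 1997, 2471 and 1356 in WT libraries. Its log2 fold change was 1.28 ± 0.34 (SE, adjusted p = 0.0212), and the call ended under the block (adjusted p = 0.132). In both genes replicate 2 of *mtmr5*-KO was the low library and lay within the WT range. With replicates 1 and 2 alone *krt91* was at 1.02 (adjusted p = 0.115) and *krt5* at 0.80 (adjusted p = 0.242), and neither was called in that smaller fit.

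The remaining called keratins covered log2 fold changes from 1.04 to 1.92. *krt97* had 2503, 2710.0, 4410.0 and 3284 in *mtmr5*-KO, against 1706, 1949, 1618 and 994 in WT libraries, with no overlap, and a log2 fold change of 1.04 ± 0.21 (SE, adjusted p = 0.00246). *krt1-19e*, a type I keratin, had 2467, 1299, 2304 and 2377 in *mtmr5*-KO, against 1156, 1073, 834 and 547 in WT libraries. Again no library overlapped, at a log2 fold change of 1.22 ± 0.24 (SE, adjusted p = 0.00201), with an adjusted p = 0.0628 under the block. For *krt92* the levels were 542, 562, 1282 and 1032 in *mtmr5*-KO, against 312, 382, 394 and 345 in WT libraries, at a log2 fold change of 1.25 ± 0.24 (SE, adjusted p = 0.00191). The WT libraries of *krt92* lay close together, and replicates 3 and 4 of *mtmr5*-KO were the highest. *krt1-19d* had a log2 fold change of 1.07 ± 0.28 (SE, adjusted p = 0.0154) and *krt96*, with means of 90.3 ± 72.7 in *mtmr5*-KO and 23.8 ± 16.1 in WT (SD, n = 4 each), one of 1.92 ± 0.63 (SE, adjusted p = 0.0446). *krt17*, a type I keratin, was at the threshold, at a log2 fold change of 1.10 ± 0.35 (SE, adjusted p = 0.0498), with 932, 803, 2027 and 2454 in *mtmr5*-KO, against 753, 898, 710.3 and 539 in WT libraries, so that replicate 2 of *mtmr5*-KO lay within the WT range and replicates 3 and 4 were the highest, and under the block its adjusted p was 0.314.

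Of these 6 keratins *krt92* alone kept its call without replicates 3 and 4 of *mtmr5*-KO, in a fit with fewer libraries, and its change was smaller, 0.59 (adjusted p = 0.0315). In that fit *krt17* was at 0.22 (adjusted p = 0.51) and *krt96* at 0.45 (adjusted p = 0.698). *krt1-19d* was then at 0.55 (adjusted p = 0.236), *krt97* at 0.69 (adjusted p = 0.0658) and *krt1-19e* at 1.01 (adjusted p = 0.074).

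The only lower keratin was *KRT222*, a keratin-like gene that the files name by its human symbol. It had 123, 175, 127 and 91.5 in *mtmr5*-KO, against 194, 517, 280.1 and 482 in WT libraries, with all *mtmr5*-KO libraries below all WT libraries. Its log2 fold change was -1.50 ± 0.30 (SE, adjusted p = 0.00189), and -2.40 with library totals (adjusted p = 4.88e-05). Without replicates 3 and 4 of *mtmr5*-KO it was -1.34 (adjusted p = 0.0569). Thus *KRT222* and the epidermal keratins moved in opposite directions relative to the bulk of the genes with TMM, though with library totals *krt4*, *krt5* and *krt91* were between 0.20 and 0.43 and not called.

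The keratins of simple epithelia, *krt8* (type II) and its partners *krt18a.1* and *krt18b* (type I), did not pass the test. *krt8* had 1914, 1212, 2354 and 1980.0 in *mtmr5*-KO, against 2020.1, 1541, 1303 and 1103 in WT libraries, so the genotypes overlapped, at a log2 fold change of 0.32 ± 0.21 (SE, adjusted p = 0.305). *krt18a.1* was at 0.50 (adjusted p = 0.128) and *krt18b* at 0.35 (adjusted p = 0.323). The other uncalled keratins, *krt15*, *krt93*, *krt94*, *krt95*, *krt99* and *krt1-c5*, had log2 fold changes of -0.20 to 0.77. *krt95* had no counts in replicate 1 of *mtmr5*-KO, and *krt93* was low in replicate 1 of both genotypes (56.4, 270.4, 212 and 87.4 in *mtmr5*-KO, against 36.2, 209, 187 and 171 in WT libraries).

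The make-up of the keratin pool within a library does not depend on scaling between libraries. The pool is the summed counts of the 19 keratins matched by symbol. Keratins under other symbols, such as *cyt1* and *cyt1l*, are not in it. *krt4*, *krt5* and *krt91* together took 64.5% ± 4.16 of the keratin counts in *mtmr5*-KO and 53.7% ± 5.31 in WT libraries (SD, n = 4 each), all *mtmr5*-KO libraries (the lowest at 59.5%) lying above all WT libraries. *krt8*, *krt18a.1* and *krt18b* together took 8.83, 8.84, 7.28 and 8.79% in *mtmr5*-KO, against 15.3, 13.9, 11.7 and 15.8% in WT libraries, again without overlap. By single gene, the share of *krt8* was 5.29, 5.03, 4.24 and 4.70% in *mtmr5*-KO, against 9.04, 7.74, 7.15 and 9.25% in WT libraries. Shares of *krt8*, *krt15*, *krt18b*, *krt94* and *KRT222* were lower in every *mtmr5*-KO library than in any WT library, and no keratin share was higher in this way. Relative to the same keratin total, 40.9% of all tested genes were lower without overlap and 1.16% higher, beside 5 of 19 keratins lower. Keratin shares are parts of that total and cannot all fall together as other genes can. This background is therefore not a like one, and nothing is concluded from the count of 5. These groupings of keratins were chosen after their values were seen, and no test was run on them.

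**Figure D2:**
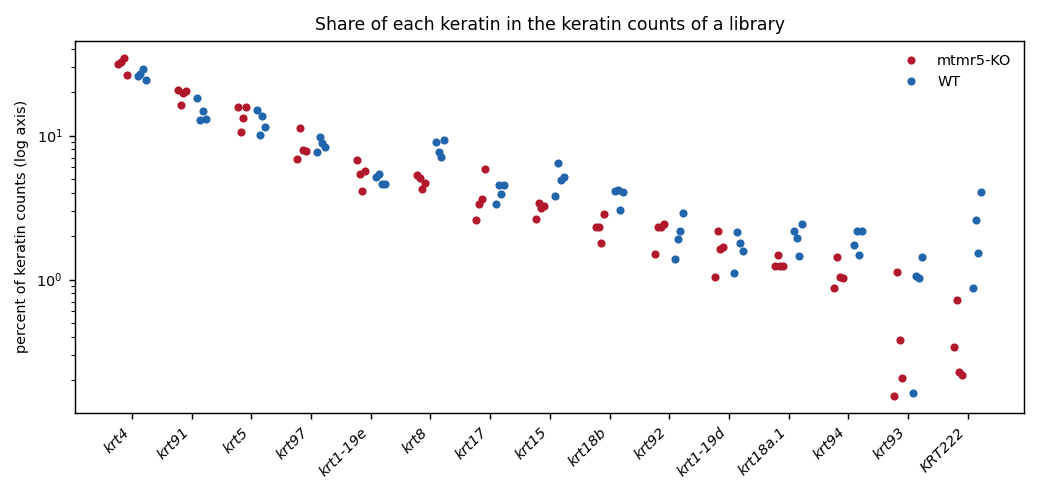
Share of the summed keratin counts taken by each of the 15 keratins with the highest mean share in *mtmr5*-KO (y axis, percent, log axis) in the 4 *mtmr5*-KO and 4 WT libraries, with 1 point per library. The points of *krt8*, *krt15*, *krt18b*, *krt94* and *KRT222* do not overlap between genotypes, and the *mtmr5*-KO points are the lower ones.

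Claudins were called in both directions. Of 27, 7 were higher (25.9%, against 13.5% of all tested genes) and 2 lower (7.41%, against 7.51%) in *mtmr5*-KO with TMM. With library totals 3 were higher (11.1%, against 3.70%) and 11 lower (40.7%, against 55.7%), so lower claudins were not more than in genes at large. The claudins called higher with both scalings were *cldn5a*, *cldn15a* and *cldn15lb*, and those called lower with both were *cldn5b* and *cldn7a*. Of these *cldn15lb* passed the count minimum through *mtmr5*-KO libraries alone, so its place among the 7 is not independent of its level there. Over all 27 claudins the median log2 fold change was 0.42 with TMM and -0.63 with library totals.

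*cldn5a* and *cldn5b* are duplicates of the claudin 5 gene, which in vertebrates seals brain vessels. In zebrafish *cldn5a* is also expressed in the neuroepithelium that lines the brain ventricles. *cldn5a* had 198, 207, 329 and 358 in *mtmr5*-KO, against 33.8, 41.9, 86.8 and 74.4 in WT libraries, with a wide gap between genotypes. Its log2 fold change was 2.21 ± 0.32 (SE, adjusted p = 0.000117), and without replicates 3 and 4 of *mtmr5*-KO it was 1.75 (adjusted p = 0.00708). *cldn5b* had 74.2, 58.7, 54.5 and 35.4 in *mtmr5*-KO, against 147, 151, 113.2 and 102 in WT libraries, every *mtmr5*-KO library below every WT library. Its log2 fold change was -1.19 ± 0.29 (SE, adjusted p = 0.00767), and without those replicates -0.99 (adjusted p = 0.0481). With library totals the log2 fold changes were 1.21 and -2.14 (adjusted p = 0.00294 and 0.000135). Under that setting the median over all genes was -0.98, so it tests the higher call and not the lower one.

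Endothelial markers stood beside these values. Of 9 tested markers of endothelium, none was higher and 1 lower with TMM (median log2 fold change -0.16), and none higher and 8 lower with library totals (median -1.11), and their summed level was 1074 to 1244 TMM-scaled counts in *mtmr5*-KO and 1098 to 1447 in WT libraries. The lower one was *mfsd2aa*, a lipid transporter of brain vessels, which had 1, 0, 0 and 0 raw counts in *mtmr5*-KO, against 34, 33, 11 and 23 in WT libraries, and was named after its values were seen. Of all tested genes 7.51% were lower with TMM and 55.7% with library totals. The part of vessel content in the *cldn5a* and *cldn5b* values was not tested.

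Of the claudin 15 genes, *cldn15a*, *cldn15la* and *cldn15lb* were higher with TMM, of which *cldn15la* was not called with library totals (0.94), and *cldn15b* was not called with TMM and was lower with library totals (-1.46). *cldn15a*, which in zebrafish is needed to form a single gut lumen, had 139, 75.8, 162 and 160.1 in *mtmr5*-KO, against 15.1, 38.4, 18.1 and 21.7 in WT libraries. Replicate 2 was the lowest *mtmr5*-KO library and the highest WT library, with no overlap, and the log2 fold change was 2.51 ± 0.37 (SE, adjusted p = 0.00014). *cldn15la*, an intestinal claudin, had 45.2, 47.2, 66.6 and 160.1 in *mtmr5*-KO, against 15.1, 4.89, 29.4 and 32.6 in WT libraries, at a log2 fold change of 1.95 ± 0.55 (SE, adjusted p = 0.0192). *cldn15lb* had raw counts of 5, 12, 14 and 25 in *mtmr5*-KO, against 3, 7, 3 and 3 in WT libraries, at a log2 fold change of 3.15 ± 0.77 (SE, adjusted p = 0.00883), so that this value rests on few reads. By contrast *cldn15b* had 62.9, 130.2, 117 and 81.1 in *mtmr5*-KO, against 142, 165, 117 and 128 in WT libraries, with overlap, at a log2 fold change of -0.49 ± 0.27 (SE, adjusted p = 0.211). From replicates 1 and 2 of *mtmr5*-KO alone *cldn15a* was at 2.15 (adjusted p = 0.00687), *cldn15la* at 1.15 (adjusted p = 0.241) and *cldn15lb* at 2.097 (adjusted p = 0.127).

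In the same libraries 6 of 9 tested gut markers, 8 of 12 liver markers and 6 of 8 exocrine pancreas markers were higher with TMM, and none was lower. With library totals 2 gut markers were higher and 1 lower, 7 liver markers and 5 pancreas markers were higher, and none of these last was lower. The summed gut level was 1997 to 5784 TMM-scaled counts in *mtmr5*-KO and 849 to 1768 in WT libraries, and the pancreas level 619.6 to 1300.4 and 202 to 297 in the same order. The liver sums overlapped, at 12598 to 17040 in *mtmr5*-KO and 8437 to 17923 in WT libraries. None of the tested markers of the 3 lists was without counts in all libraries of a genotype. Of all tested genes 13.5% were higher with TMM and 3.70% with library totals. The part of these organs in the values of the claudin 15 genes was not tested.

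Epidermal claudins varied. *cldni* had 231, 252, 539 and 339 in *mtmr5*-KO, against 173, 128, 166 and 135 in WT libraries, at a log2 fold change of 1.17 ± 0.25 (SE, adjusted p = 0.00355), with no overlap. *cldn7b* had 100., 71.5, 80.8 and 125 in *mtmr5*-KO, against 50.7, 36.3, 35.5 and 31.0 in WT libraries, at a log2 fold change of 1.29 ± 0.31 (SE, adjusted p = 0.00836). Its duplicate *cldn7a* had 64.5, 95.9, 62.6 and 56.2 in *mtmr5*-KO, against 228, 117, 106 and 128 in WT libraries, at a log2 fold change of -1.04 ± 0.30 (SE, adjusted p = 0.0219). The call of *cldn7a* ended without WT replicate 1, its highest library, and without replicate 4 of *mtmr5*-KO (the highest adjusted p over the fits without 1 library was 0.0993). *cldn8.2* was at the threshold, at 1.55 ± 0.53 (SE, adjusted p = 0.0476), and lost its call under the block (adjusted p = 0.0572). Without replicates 3 and 4 of *mtmr5*-KO none of the 4 was called, with *cldni* at 0.64 (adjusted p = 0.0742), *cldn7b* at 1.11 (adjusted p = 0.0575), *cldn7a* at -0.89 (adjusted p = 0.135) and *cldn8.2* at 0.76 (adjusted p = 0.443).

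The claudins with the most counts did not pass the test. *cldnd1a*, a claudin-domain gene, had 613, 629.6, 466 and 455 in *mtmr5*-KO, against 608, 585, 643 and 586 in WT libraries (log2 fold change -0.16 ± 0.15 (SE, adjusted p = 0.503)). *cldn12* had 484, 388, 392 and 412 in *mtmr5*-KO, against 284, 334, 377 and 382 in WT libraries, a difference that was small though no library overlapped (log2 fold change 0.28 ± 0.16 (SE, adjusted p = 0.233)). *cldne*, a claudin of the skin surface, had 314, 411, 517 and 409.7 in *mtmr5*-KO, against 327, 429, 384 and 268 in WT libraries (log2 fold change 0.23 ± 0.19 (SE, adjusted p = 0.432)). With library totals these 3 values were -1.09, -0.66 and -0.76, each called lower, with the last 2 turned in direction.

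*cldnk* is the claudin of myelinating glia in zebrafish. It had 41.9, 51.5, 18.2 and 16.6 in *mtmr5*-KO, against 52.5, 74.7, 71.0 and 69.0 in WT libraries, every *mtmr5*-KO library below every WT library, and replicates 3 and 4 of *mtmr5*-KO the lowest. The log2 fold change was -1.03 ± 0.39 (SE, adjusted p = 0.0775), which missed the threshold. It passed with DESeq2 (adjusted p = 0.0379), with limma and without replicate 2 of *mtmr5*-KO. It also passed with library totals (adjusted p = 0.00158), which do not test a lower call, since they lower the median over all genes. Under the block its adjusted p was 0.0519. Without replicates 3 and 4 of *mtmr5*-KO it was at -0.55 (adjusted p = 0.304). Of the 8 fits that leave out 1 library, 1 called it, and the highest adjusted p was 0.179. Its raw counts in replicates 3 and 4 of *mtmr5*-KO were 9 and 8. Of 10 tested markers of myelinating glia, 2 were higher with TMM, *mbpa* at 1.09 and *mag* at 1.94, and none was lower, while with library totals 1 was higher and 8 were lower. The median log2 fold change of these markers was -0.20 with TMM and -1.18 with library totals, with a summed level of 7402 to 9838 TMM-scaled counts in *mtmr5*-KO and 4346 to 7147 in WT libraries. Of all tested genes 13.5% were higher with TMM and 55.7% lower with library totals. The part of myelinating glia in the *cldnk* values was not tested. *cldn19* and *cldn11a*, whose mammalian counterparts are myelin claudins, were at 1.56 (adjusted p = 0.0764) and 0.04 (adjusted p = 0.904), and *cldn11b* was at -0.55 (adjusted p = 0.319). *cldn19* passed as higher with DESeq2 (adjusted p = 0.0334) and without replicate 1 of *mtmr5*-KO (adjusted p = 0.0491). It did not pass under the block (adjusted p = 0.102) or with library totals (adjusted p = 0.47), and its genotypes overlapped.

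The uncalled claudins not named so far were *cldn2*, *cldn3c*, *cldn23.1*, *cldn23l*, *cldn29*, *cldn30*, *cldna*, *cldnb*, *cldnd1b* and *cldnf*, with log2 fold changes of -0.45 (*cldn2*) to 1.45 (*cldnd1b*). *cldn2* was called lower under the replicate block alone among the fits with TMM (adjusted p = 0.0449). It had 366, 226, 98.9 and 125 in *mtmr5*-KO, against 384, 343, 214 and 179.9 in WT libraries. Replicates 1 and 2 were higher than replicates 3 and 4 in both genotypes. *cldn1* stands in the count table under an identifier (ENSDARG00000040045) that the gene name table resolves, so that it is not among the 64. Its log2 fold change was 0.89 ± 0.43 (SE, adjusted p = 0.163).

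**Figure D3:**
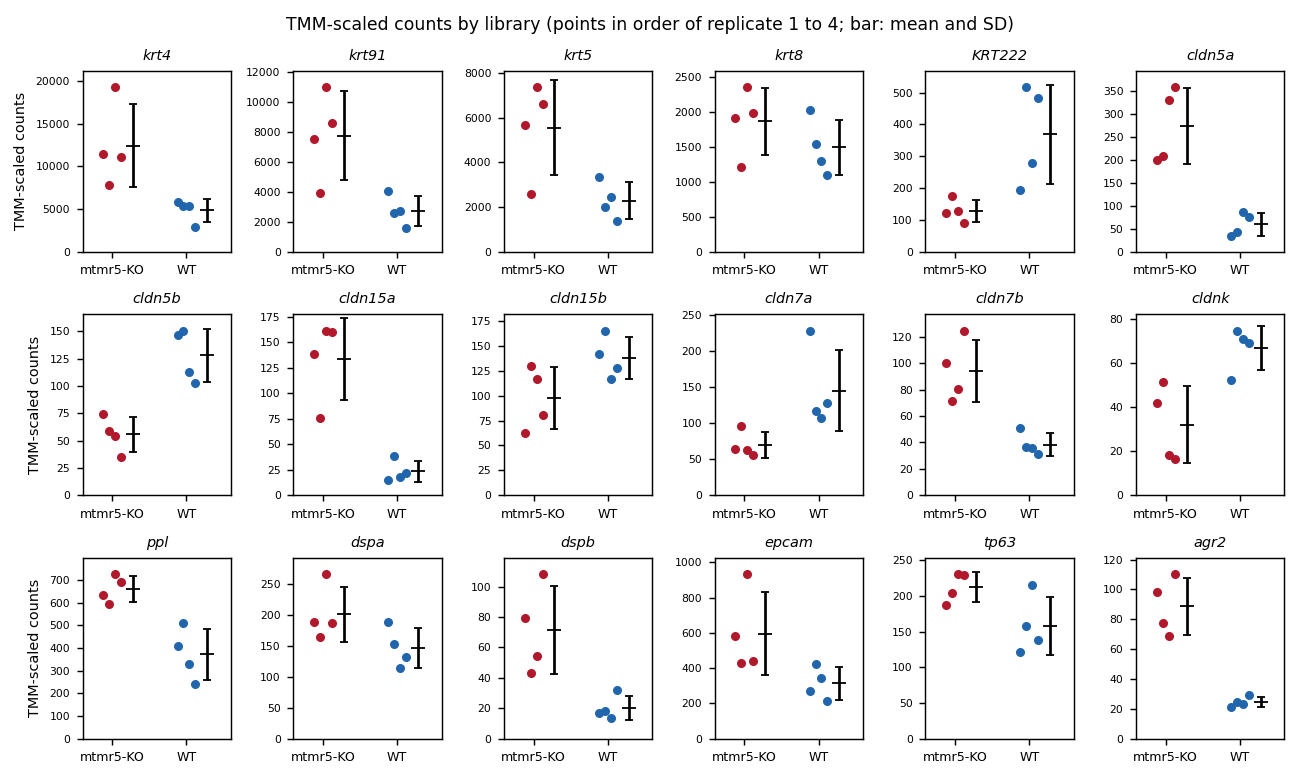
TMM-scaled counts (y axis, from 0) of 18 of the 64 genes in the 4 *mtmr5*-KO libraries (left) and the 4 WT libraries (right), with points in order of replicate and the mean and SD beside them. *cldn5a*, *cldn15a* and *agr2* show a gap with *mtmr5*-KO higher, in calls that hold with library totals too. *cldn5b* and *KRT222* show one with *mtmr5*-KO lower. Library totals, with a median log2 fold change of -0.98 over all genes, do not test a lower call. *krt4* and *ppl* are separated with TMM and are not called with library totals.

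A total of 9 pairs of genes could be compared as ratios within a library, which do not depend on scaling. These are all pairs of the tested genes whose symbols differ in a final a or b, with a mean of at least 20 raw counts in both. In 3 of 9 pairs, all claudins, the log2 ratios of the genotypes did not overlap, against 25.0% of 1689 such pairs among all genes. An exact two-sided permutation test of 4 against 4 cannot go below p = 0.0286, and no pair had an adjusted p under 0.05.

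The log2 ratio of *cldn5a* to *cldn5b* was 1.41, 1.81, 2.57 and 3.30 in *mtmr5*-KO, against -2.11, -1.84, -0.38 and -0.46 in WT libraries. In WT heads *cldn5b* had more counts than *cldn5a* in each library, and in *mtmr5*-KO heads *cldn5a* had more in each. The difference was 3.47 (exact permutation test, p = 0.0286, adjusted p = 0.0857 over 9 pairs). For *cldn15a* to *cldn15b* the ratio was 1.13, -0.77, 0.46 and 0.97 in *mtmr5*-KO, against -3.21, -2.10, -2.67 and -2.54 in WT libraries. The difference was 3.07 (exact permutation test, p = 0.0286, adjusted p = 0.0857 over 9 pairs). The ratio of *cldn7a* to *cldn7b* went the other way, with -0.63, 0.42, -0.36 and -1.14 in *mtmr5*-KO, against 2.16, 1.67, 1.57 and 2.03 in WT libraries. Here the difference was -2.29 (exact permutation test, p = 0.0286, adjusted p = 0.0857 over 9 pairs).

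In the 6 other pairs the genotypes overlapped. Taken by replicate number, which pairs the libraries, the ratio of *dspa* to *dspb* was lower in *mtmr5*-KO in 4 of 4 pairs and that of *cldnd1a* to *cldnd1b* in 3 of 4. Ratios of *cldn11a* to *cldn11b* and of *evpla* to *evplb* were higher in *mtmr5*-KO in 3 of 4. For *cldna* to *cldnb* and *pkp3a* to *pkp3b* it was 2 of 4. In the 3 claudin ratios without overlap, 4 of 4 pairs differ in 1 direction whatever the pairing, so the pairing adds nothing there. A paired exact test of 4 pairs cannot go below p = 0.125. The log2 ratio of *dspa* to *dspb* differed by -1.35 and that of *cldnd1a* to *cldnd1b* by -1.82 (exact permutation test, p = 0.0571 and adjusted p = 0.103 for each). The others, *cldn11a* to *cldn11b*, *pkp3a* to *pkp3b*, *evpla* to *evplb*, and *cldna* to *cldnb*, which share a letter scheme only, differed by -0.63 to 0.71. *evpla* had 10 raw counts in replicate 1 of *mtmr5*-KO and 54 to 80 in the other *mtmr5*-KO libraries.

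**Figure D4:**
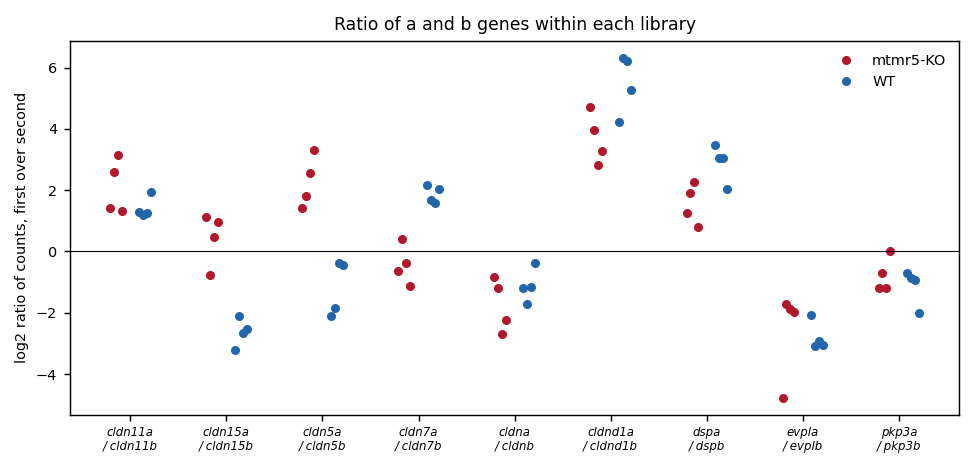
Log2 ratio of the raw counts (plus 0.5) of 2 genes within each library (y axis) for the 9 pairs, with 4 *mtmr5*-KO libraries left and 4 WT libraries right in each pair. The genotypes do not overlap for *cldn15a* to *cldn15b*, *cldn5a* to *cldn5b* and *cldn7a* to *cldn7b*.

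Of 12 desmosomal and plakin genes, 5 were higher (41.7%, against 13.5% of all tested genes) and none was lower in *mtmr5*-KO with TMM. The log2 fold changes of all 12 were positive, from 0.28 to 1.81. With library totals none was higher and 2, *jupa* and *evplb*, were lower (16.7%, against 55.7% of all tested genes). *ppl* encodes periplakin, which links keratin filaments to desmosomes and the cell cortex. It had 634, 595, 725 and 691 in *mtmr5*-KO, against 407, 509, 329 and 242 in WT libraries, with no overlap, at a log2 fold change of 0.83 ± 0.20 (SE, adjusted p = 0.00754). *pkp3a* and *pkp3b* encode plakophilins of the desmosomal plaque. The levels of *pkp3a* were 127, 172, 208 and 293 in *mtmr5*-KO, against 98.9, 109, 116 and 62.8 in WT libraries, at a log2 fold change of 1.04 ± 0.28 (SE, adjusted p = 0.015), and those of *pkp3b* were 292, 282, 477 and 291 in *mtmr5*-KO, against 160.4, 199, 219.7 and 254 in WT libraries, at a log2 fold change of 0.69 ± 0.21 (SE, adjusted p = 0.0326). With library totals *ppl* and *pkp3b* turned in direction, to -0.16 and -0.30, and neither was called. From replicates 1 and 2 of *mtmr5*-KO alone none of the 3 was called, with *ppl* at 0.68 (adjusted p = 0.0935), *pkp3a* at 0.59 (adjusted p = 0.215) and *pkp3b* at 0.43 (adjusted p = 0.2).

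The desmoplakin gene *dspb* and the desmoglein gene *dsg2.1* were higher at lower counts. *dspb* had 79.0, 42.9, 54.5 and 108 in *mtmr5*-KO, against 16.9, 18.1, 13.6 and 31.8 in WT libraries, at a log2 fold change of 1.81 ± 0.42 (SE, adjusted p = 0.00589). Its duplicate *dspa*, which had the more counts of the pair, had 189, 165, 267 and 187 in *mtmr5*-KO, against 189, 154, 115 and 132 in WT libraries, with overlap (log2 fold change 0.45 ± 0.23 (SE, adjusted p = 0.185)). *dsg2.1* had 41.9, 67.2, 58.6 and 95.7 in *mtmr5*-KO, against 9.65, 34.9, 29.4 and 9.30 in WT libraries, at a log2 fold change of 1.65 ± 0.48 (SE, adjusted p = 0.0232). Without replicates 3 and 4 of *mtmr5*-KO *dspb* was at 1.56 (adjusted p = 0.0468) and *dsg2.1* at 1.36 (adjusted p = 0.145). The more abundant members *evplb* (envoplakin) and *jupa* (plakoglobin) did not pass the test, at 0.40 ± 0.19 (SE, adjusted p = 0.152) and 0.42 ± 0.18 (SE, adjusted p = 0.103). *dsc2l*, *evpla*, *pkp1b* and *pkp2* were at 0.61, 0.91, 0.28 and 0.60, with adjusted p from 0.19 to 0.584. Heart muscle also carries desmosomes. Of 5 tested heart markers none was called with TMM and 2 were lower with library totals. The median log2 fold change of these markers was 0.80 with TMM and -0.17 with library totals. Their summed levels were 124 to 207 TMM-scaled counts in *mtmr5*-KO and 131 to 176 in WT libraries. The part of heart in the values of the desmosomal and plakin genes was not tested.

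Among the 6 other epithelial genes 5 were higher with TMM (83.3%, against 13.5% of all tested genes), and with library totals 1 was (16.7%, against 3.70%). *agr2* encodes a protein disulfide isomerase of mucus-secreting cells. It had 98.4, 77.3, 68.7 and 110.2 in *mtmr5*-KO, against 21.1, 24.4, 23.4 and 29.5 in WT libraries, the lowest *mtmr5*-KO library well above the highest WT library. The log2 fold change was 1.84 ± 0.33 (SE, adjusted p = 0.000747), 1.79 (adjusted p = 0.0053) without replicates 3 and 4 of *mtmr5*-KO, and 0.90 with library totals (adjusted p = 0.0464). *agr1*, of the same family, had 103, 55.8, 101 and 121 in *mtmr5*-KO, against 50.7, 21.6, 27.9 and 22.5 in WT libraries, at a log2 fold change of 1.62 ± 0.37 (SE, adjusted p = 0.00583), and of 1.31 (adjusted p = 0.0744) without those replicates. Of 8 tested markers of ionocytes and mucous cells 2 were higher and none lower with TMM, and 1 higher and 1 lower with library totals, with a summed level of 626 to 668 TMM-scaled counts in *mtmr5*-KO and 385 to 510.3 in WT libraries.

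*icn* and *icn2* encode ictacalcins, calcium-binding proteins of the S100 family. *icn2* had 155, 127, 335 and 144 in *mtmr5*-KO, against 51.9, 90.0, 74.0 and 23.3 in WT libraries, at a log2 fold change of 1.66 ± 0.39 (SE, adjusted p = 0.00745), and *icn* 279, 353, 697 and 509.6 in *mtmr5*-KO, against 302, 265, 267 and 174 in WT libraries, at one of 0.86 ± 0.25 (SE, adjusted p = 0.0246). *epcam*, an adhesion protein of epithelial cells, had 581, 428, 933 and 443 in *mtmr5*-KO, against 271, 425, 344 and 212 in WT libraries, at a log2 fold change of 0.93 ± 0.26 (SE, adjusted p = 0.0198). With library totals *epcam* and *icn* were at -0.09 and -0.20. On replicates 1 and 2 of *mtmr5*-KO alone *icn2* was at 1.19 (adjusted p = 0.0874), *icn* at 0.29 (adjusted p = 0.464) and *epcam* at 0.64 (adjusted p = 0.114), and none was called. *tp63*, the transcription factor of basal keratinocytes, did not pass, with 187, 203, 230.2 and 229 in *mtmr5*-KO, against 122, 157, 214 and 139 in WT libraries (log2 fold change 0.43 ± 0.22 (SE, adjusted p = 0.184), and -0.55 with library totals).

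Position in the genome was shared by some of these genes. In the gene order of the RefSeq annotation of GRCz12tu, in which 63 of the 64 symbols were found, 23 lay in 10 runs of directly adjacent protein-coding genes. One run holds *krt1-19d*, *krt1-19e* and *krt92*, all 3 higher with TMM, at 1.07 to 1.25, and none of them called with library totals. Another holds *krt5*, *krt8* and *krt18a.1*, of which *krt5* alone was called with TMM. The adjacent pairs *krt17* and *krt91*, *krt97* and *krt96*, and *icn* and *icn2* were higher in both members with TMM and called in neither with library totals. The adjacent *krt93* and *krt94*, and *krt15* and *krt99*, were not called with TMM, while with library totals *krt94* and *krt15* were lower. Neighbours *cldne*, *cldnf* and *cldna* were at 0.23, 0.81 and -0.34 with TMM, and *cldnb* and *cldn29* at 0.42 and -0.04, none called. Of the adjacent *dsc2l* and *dsg2.1*, *dsg2.1* alone was called with TMM. Near-identical neighbours can split or lose reads when only uniquely mapping reads are counted, and no source used here gives the strand setting, so values of single keratins carry that uncertainty.

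Genes that work with these proteins were taken from 3 lists. Among all tested genes 13.5% were higher and 7.51% lower with TMM, and 3.70% and 55.7% with library totals. Of 27 tested partners of claudins at tight junctions, 8 were higher and none lower with TMM, and 1 higher and 9 lower with library totals. Among them *pard3ab*, a scaffold of cell polarity, had 739, 565, 1520.5 and 967 in *mtmr5*-KO, against 116, 148, 208 and 179 in WT libraries, at a log2 fold change of 2.54 ± 0.28 (SE, adjusted p = 2.18e-05), and was called with library totals too (1.50). *tjp1b*, which encodes the scaffold ZO-1, had a log2 fold change of 0.73 ± 0.15 (SE, adjusted p = 0.00337), and *f11r.1*, a junctional adhesion molecule, one of 1.30 ± 0.29 (SE, adjusted p = 0.00502). The direction of *tjp1b* turned with library totals (-0.25). The list's median was 0.56 with TMM and -0.53 with library totals.

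Of 15 tested genes of adherens junctions and hemidesmosomes, 3 were higher and none lower with TMM, and none higher and 6 lower with library totals. The 3 were *pleca* and *plecb*, which encode plectins that tie intermediate filaments to hemidesmosomes, at 1.39 ± 0.20 (SE, adjusted p = 0.000148) and 0.81 ± 0.18 (SE, adjusted p = 0.00409), and *nectin3b*, an adhesion molecule, at 0.84 ± 0.16 (SE, adjusted p = 0.00162). With library totals *plecb* and *nectin3b* turned in direction, to -0.17 and -0.11. Of 25 tested genes of the epidermal surface and its regulators, 7 were higher and none lower with TMM, and none higher and 4 lower with library totals. *spint2*, an inhibitor of membrane serine proteases, was at 1.36 ± 0.23 (SE, adjusted p = 0.000556), *scel* (sciellin) at 1.40 ± 0.26 (SE, adjusted p = 0.00126) and *anxa1b* (annexin A1) at 1.36 ± 0.27 (SE, adjusted p = 0.00177). The median over these 25 genes was 0.80 with TMM and -0.24 with library totals.

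By library, the 19 keratins had mean log2 levels, set against the mean of WT, of 0.21, 0.32, 1.19 and 0.72 in *mtmr5*-KO replicates 1 to 4, against -0.02, 0.24, 0.06 and -0.28 in WT, so that replicate 1 of *mtmr5*-KO lay within the WT range and replicate 3 was the highest. The claudins were at 0.32, 0.35, 0.55 and 0.60 in *mtmr5*-KO and the desmosomal and plakin genes at 0.46, 0.64, 1.01 and 1.04, in each case above every WT library. Gut markers were at 1.03, 0.75, 1.75 and 1.68, and liver markers at 1.32, 0.87, 2.13 and 2.33, in the same *mtmr5*-KO libraries. Replicates 3 and 4 of *mtmr5*-KO were the higher ones in these groups. They were also the farthest from WT in markers of lens and pronephros, but not in those of neurons, endothelium or heart. Lens markers were at -3.17, -2.51, -4.09 and -4.93 in *mtmr5*-KO, against -0.85, 1.16, -0.97 and 0.66 in WT libraries, with 5 of 7 lower with TMM and 6 lower with library totals. Markers of the pronephros were at 0.27, 0.48, 0.81 and 1.09 in *mtmr5*-KO, against -0.15, 0.07, -0.04 and 0.12 in WT libraries, with 2 of 4 higher with TMM and none called with library totals. The part of these tissues in the values of the 64 genes was not tested.

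**Figure D5:**
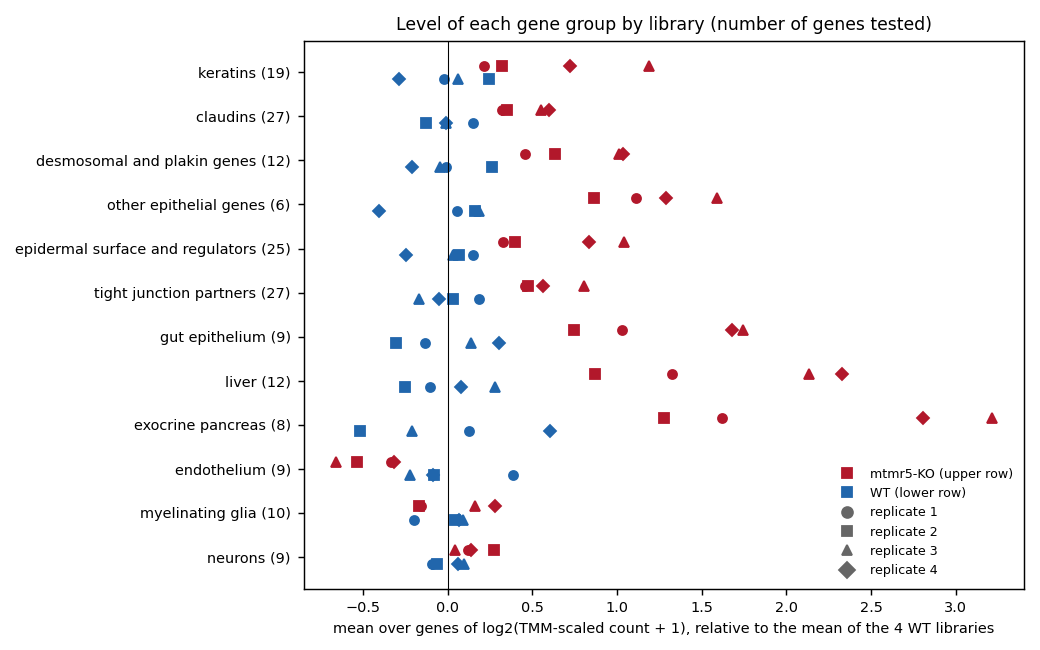
Mean over the genes of a group of log2(TMM-scaled count + 1), relative to the mean of the 4 WT libraries (x axis), for each *mtmr5*-KO library (upper row of each group) and WT library (lower row), with a symbol per replicate. In keratins and in gut, liver and pancreas markers, replicates 3 and 4 of *mtmr5*-KO lie to the right of replicates 1 and 2, in levels scaled by TMM (with library totals the median change over all genes is -0.98).

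The groups were also compared as sums of TMM-scaled counts. The keratins summed to 36217, 24088, 55551 and 42135 in *mtmr5*-KO, against 22357, 19911, 18224 and 11928 in WT libraries. The claudins summed to 3385, 3395, 3962 and 3717 in *mtmr5*-KO, against 3211, 3116, 2984 and 2791 in WT libraries. Neither sum overlapped between genotypes, with *mtmr5*-KO above, but the raw keratin counts, 22457, 16835, 27511 and 20259 in *mtmr5*-KO, against 37064, 28527, 24142 and 15383 in WT libraries, overlapped, and as a share of all counts the keratins took 0.0981% to 0.144% in *mtmr5*-KO and 0.0704% to 0.165% in WT libraries. As a share of all counts the claudins took 0.0102% to 0.0138% in *mtmr5*-KO and 0.0165% to 0.0238% in WT libraries, which is lower without overlap. The direction of the claudin sum therefore depends on the scaling.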

How the data were processed

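In the methods and processing notes, reads were trimmed (Trim Galore 0.6.7), mapped to GRCz11 (STAR 2.7.11a) and, if uniquely mapping, assigned to Ensembl genes (HTSeq 2.0.5) by the authors. The deposited raw counts hold 32520 rows. The deposited normalized counts, a signal equal to raw counts over 1 size factor per library, hold 19412 of them, which are the rows with 10 counts or more in 3 libraries or more. Of their values 100.0% gave whole reads (within 0.01). Those reads are the raw counts again, so the count test on them had to call the same 26 and 3 genes and is no separate check.

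The test was edgeR 4.0.16 (glmQLFit with robust estimation, glmQLFTest, TMM; R 4.3.3) on raw counts, with no term but genotype and p-values adjusted over 19412 genes. Standard errors are the log2 fold change over the square root of F. DESeq2 1.42.0, limma 3.58.1 (log2 of normalized counts plus 1), other scalings, filters, the replicate block and fits without libraries were alternatives, and the fits were tested on simulated data. Libraries with the same replicate number deviated together (correlations of 0.297 to 0.464 in the 4 pairs, against -0.359 to 0.231 for unlike numbers). The numbers were therefore taken to pair the libraries in the block, though the sample labels do not state a pairing. The main test does not use it. No 2 libraries of a genotype agreed within sampling noise.

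The genes and lists were chosen with earlier results of these data known. Named were the called genes whose TMM-scaled counts averaged 50 or more, the 3 most abundant of each role, *cldnk*, *cldn5a*, *cldn5b*, *tp63* and *epcam*, and up to 3 called genes of each list. Others are named because they complete a count, a pair or a role, after their values were seen. No sequence of these genes is printed.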

Additional observations from a re-analysis of the deposited data

Results flagged for a closer look

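In 66 groups of 4 libraries (the named genes and *sbf1*, by genotype), 3 held a library far from the other 3, and chance alone gives about 1 in 20 groups. *pkp3b* was high in replicate 3 of *mtmr5*-KO (477 TMM-scaled counts, against 282 to 292 in the other *mtmr5*-KO libraries), *icn2* was high in the same library (335, against 127 to 155), and *krt1-19e* was low in replicate 2 of *mtmr5*-KO (1299, against 2304 to 2467).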

How the results depend on the processing

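The count of higher genes, 26, was 4 with library totals, 6 without *mtmr5*-KO replicates 3 and 4, 14 at the stricter threshold (adjusted p under 0.01, log2 change over 1), and 17 to 28 over the fits that leave out 1 library. It was 21 to 28 with the other scalings, tools and filters and with the replicate block. The count of lower genes, 3, was 18 with library totals, 1 without *mtmr5*-KO replicates 3 and 4, and 2 to 4 over the fits that leave out 1 library. *cldn1*, added by the name table, changed neither count. With library totals 9 of the 32 named genes turned in direction, *cldn12* (-0.66), *cldne* (-0.76), *evplb* (-0.58), *jupa* (-0.57), *tp63* (-0.55), *pkp3b* (-0.30), *icn* (-0.20), *ppl* (-0.16) and *epcam* (-0.094), and 15 others lost their call. That setting takes library totals as equal, while TMM sets the bulk of the genes equal, and which of them is right for these heads was not tested. The count of pairs without overlap, 3, was 3 to 5 over the fits that leave out 1 library, with 5 without *mtmr5*-KO replicate 1 and 5 without WT replicate 4. Leaving out a library cannot make an overlap, so this count could only stay or rise and does not measure stability. The share over all such pairs is not given for these fits. The replicate block, which pairs libraries by number, gave 21 higher and 4 lower, and changed no other call than those given above. Apart from the count of pairs, no cause of a change with a setting was tested. Genes with few counts, such as *cldn15lb* and *krt95*, are limited by depth.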
